A study of Mus musculus with 22 samples.

Results

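The chaperonin CCT, also called TRiC, is a cytosolic machine that folds actin, tubulin and many other proteins, and the RNA of its 8 subunit genes was followed through 22 single astrocytes. The genes were taken by symbol from the count table, Tcp1, Cct2, Cct3, Cct4, Cct5, Cct6a, Cct7 and Cct8, 8 of the 23453 symbols that it lists, by a rule that uses no measured value. The complex is built of a pair of stacked rings, each holding 1 copy of every subunit, which close over a folding protein as ATP is hydrolysed. Astrocytes need its main products, since their processes are shaped by actin and their transport runs on microtubules. Tcp1, Cct2, Cct4 and Cct5 form the side of the ring that binds ATP with high affinity, and Cct3, Cct6a, Cct7 and Cct8 the side with low affinity.

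The study sorted cultured mouse astrocytes by their calcium signal during EtOH exposure, recorded with the dye Fluo-4, and then drew single cells into a pipette for sequencing. S-type cells (n = 6) answered with a slow rise and decay, T-type cells (n = 6) with a transient, M-type cells (n = 5) with a mixed waveform, and NR cells (n = 5) stayed under the response threshold. All of them came from primary cultures of the cortex of C57BL/6 pups at postnatal day 0 to 1, which had been shaken and treated with cytosine arabinoside for 12 hours against other cell types, and serum had been withdrawn 24 hours earlier. NR cells went through the same EtOH exposure, so there is no unexposed group, and although the study states the EtOH dose and the collection times of its experiments, the labels do not tie a time to a single cell. No animal or culture is named for a cell either, so each response type counts as 1 sample, no test between types was run, and differences are described by their size and by whether the cells of 2 types overlapped. A level below is the mean over the cells of a type of the normalized count, the number of reads divided by a size factor for the cell, with the SD over cells.

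Total reads ran from 12229280 to 16254761 in S-type, from 2937786 to 19279519 in T-type, from 19030121 to 22131076 in M-type and from 15057892 to 19930655 in NR cells. Of the T-type cells, 2 stand apart. J162_16 had 6319 genes with a read, the fewest of all cells, and a size factor of 0.0219 per 1000000 reads against 0.0457 to 0.105 in the other cells, which raises its normalized counts relative to CPM, the reads of a gene per 1000000 reads of the cell. J163_18 was the smallest library, with 2937786 reads and a size factor of 0.183. Subunit ratios that rest on either cell are given with and without it, while spread and make-up within T-type include both. The 10 astrocyte markers, Gfap and Aqp4 among them, summed to 1051 to 8972 CPM in every cell. Single markers differed between types. Compared with NR, 5 of the 10 had an S-type level at least 2-fold lower, and none a higher one. Of the 12719 genes read in 5 or more cells, 22.4% were lower and 25.1% higher. M-type had 4 markers lower and none higher, where 28.1% and 19.8% of these genes were. T-type had 4 markers lower and 2 higher, where 32.4% and 28.6% of these genes were. The T-type level of Gfap was 12.1-fold below that of NR. Single cells held much of some levels, J154_8 87.3% of S-type Gfap and J163_18 97.3% of T-type Slc1a2. The 9 microglia markers summed to at most 1.05 CPM in S-type and 1.94 CPM in M-type, but to 0 to 83.9 CPM in T-type and 0.735 to 147 CPM in NR cells (all 9 read in both of these types, Aif1, Csf1r and C1qa unread in S-type and Csf1r in M-type), and the part of these differences in the results below was not tested. Other marker lists reached 2048 CPM for neurons, 3329 CPM for the oligodendrocyte lineage, 7410 CPM for fibroblasts and mural cells and 35.7 CPM for endothelium in their highest cell, with Slc17a7, Sox10, Cldn5, Cdh5 and Rgs5 among those unread in every type.

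The 8 genes lie on 8 chromosomes of GRCm38 in the GENCODE vM21 annotation, which types all of them as protein coding except Cct6a, typed as a processed transcript. Tcp1 is at chromosome 17, 12915701 to 12925067, Cct2 at chromosome 10, 117051001 to 117063814, Cct3 at chromosome 3, 88297116 to 88321767, and Cct4 at chromosome 11, 22990519 to 23003780. Cct5 is at chromosome 15, 31590800 to 31601804, Cct6a at chromosome 5, 129786998 to 129846371, Cct7 at chromosome 6, 85451514 to 85468475, and Cct8 at chromosome 16, 87483326 to 87495873. The counts are exonic reads, and 4 of the genes share exonic bases with another gene, so part of their reads may be uncertain where the counting did not use the strand. Tcp1 shares 850 of 5030 exonic bases, mostly with Acat3 and Mrpl18 on the other strand, and Cct6a 554 of 3620, mostly with Psph, while Cct7 shares 214 with Pradc1 and Cct8 192 with Usp16. A near-identical copy elsewhere, at 97% identity or more over 75 bases or more, was found for Cct7 only, 209 bases of its transcript that the pseudogene Gm5380 also holds.

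RefSeq promoter windows of 300 bases, from 250 before to 50 after a transcript start, were at hand for 7 of the 8 genes. The windows of Tcp1 and Cct3 are shown because these genes had the highest correlation between subunits over cells, and that of Cct6a because its level was the lowest of the complex. Each is written 5′ to 3′ on the strand of the gene (GRCm38.p6, all on the + strand), and capitals mark the CCAAT box, the letters CCAAT on either strand, so that ATTGG is the same box read from the opposite one.
Tcp1, chr17:12916079-12916378: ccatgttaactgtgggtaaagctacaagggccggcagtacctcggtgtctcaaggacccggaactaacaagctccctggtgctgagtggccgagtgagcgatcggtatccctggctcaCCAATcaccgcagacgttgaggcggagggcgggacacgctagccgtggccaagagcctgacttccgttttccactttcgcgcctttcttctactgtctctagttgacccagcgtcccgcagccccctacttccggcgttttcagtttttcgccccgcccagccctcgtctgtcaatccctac
Cct3, chr3:88296885-88297184: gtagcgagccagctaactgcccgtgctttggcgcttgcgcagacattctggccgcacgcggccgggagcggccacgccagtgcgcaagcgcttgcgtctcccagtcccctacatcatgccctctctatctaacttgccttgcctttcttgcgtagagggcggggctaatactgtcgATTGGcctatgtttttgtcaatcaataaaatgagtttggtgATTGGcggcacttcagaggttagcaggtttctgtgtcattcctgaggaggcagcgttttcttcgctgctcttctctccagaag
Cct6a, chr5:129787106-129787405: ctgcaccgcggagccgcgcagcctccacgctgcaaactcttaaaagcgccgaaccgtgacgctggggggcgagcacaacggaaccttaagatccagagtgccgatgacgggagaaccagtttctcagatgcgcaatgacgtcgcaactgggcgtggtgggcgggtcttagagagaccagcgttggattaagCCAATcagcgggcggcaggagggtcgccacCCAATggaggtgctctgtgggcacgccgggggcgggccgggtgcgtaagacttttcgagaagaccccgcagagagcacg

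All 3 windows hold the CCAAT box, once in Tcp1 and 2 times each in Cct3 and Cct6a. With Cct7 it was found in 4 of the 9 windows of the 7 genes, against 37.4% of all 32851 windows of this length. The GC box GGGCGG, searched on both strands like every motif here, occurred in 8 of the 9 windows (all 7 genes) and in 35.7% of all windows. The letters CCGGAAG, the core of an Ets site, occurred in 3 of the 9 windows (Cct2, Cct8 and Tcp1) and in 8.86% of all windows. The core of a heat shock element (GAANNTTC or TTCNNGAA) occurred in 3 of the 9 (Cct2, Cct5 and Cct6a) and in 15.1% of all. TATAAA was not in the window of any of the 7 genes and was in 13.6% of all windows. The 9 windows of the subunits had a median GC content of 60.3% against 52.7% over all windows, and these matches are a description of letters, not of bound sites.

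Every subunit had at least 1 read in every cell. Summed over cells the reads ran from 8613 for Cct6a to 298618 for Cct2. The counting error of reads in a ratio between types was at most 0.0372 on the log2 scale, or 0.102 for Cct6a. These are distances from the centre of a 95% interval to its end. Without molecular identifiers, the interval covers the counting of reads and not the capture or amplification of RNA in each cell.

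**Figure D1:**
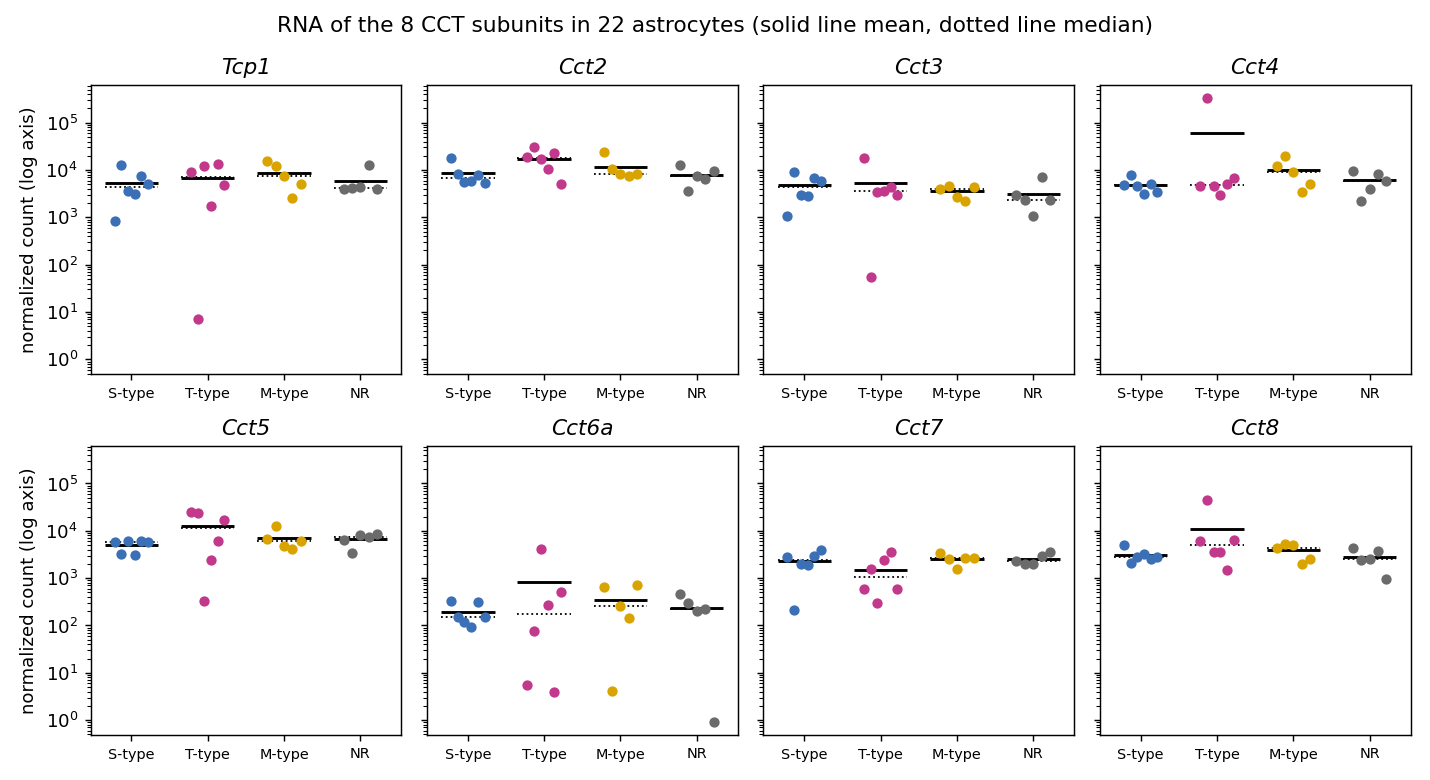
Normalized counts of the 8 CCT subunits (log axis) by response type, 1 point per cell (S-type and T-type n = 6, M-type and NR n = 5), with the mean as a solid and the median as a dotted line. The T-type cells spread most for 7 of the 8 subunits, with Tcp1 down to 7.25 and Cct4 up to 331577 in J162_16, and Cct6a has the lowest median of the subunits in each type.

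Among the subunits with high ATP affinity, Cct2, the beta subunit, which also serves as a receptor for the autophagy of protein aggregates, was the steadiest over the 22 cells, with an 8.38-fold distance between its lowest and highest cell. Its normalized count ran from 5348 to 18308 in S-type cells (median 6852) and from 4987 to 30311 in T-type cells (median 18097). The M-type cells had 23952, 10662, 8133, 7481 and 8216, and the NR cells 12924, 3618, 7442, 6405 and 9544. Of the T-type cells 5 lay at 10321 or above, a value that 1 S-type, 2 M-type and 1 NR cell passed, so the types overlapped. The level was 17439 ± 8992 (SD, n = 6 cells) in T-type against 8541 ± 4935 in S-type (n = 6), 11689 ± 6962 in M-type (n = 5) and 7987 ± 3489 in NR (n = 5), that is 2.04-fold above S-type. No single cell held more than 29% of its T-type level. On the log2 scale the ratio over S-type was 1.03, and 1.40 with the median over cells. With TMM factors it was 0.94, without J162_16 0.80, with cells thinned to 1 depth 0.80 and in mean CPM 0.46, all short of 2-fold.

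Cct4, the delta subunit, one of those that contact actin, had the largest single value. In S-type cells it ran from 3110 to 7687 (median 4771), and in T-type cells from 3035 to 331577 (median 4788). M-type cells were at 11891, 19927, 9025, 3506 and 5122, and NR cells at 9731, 2263, 4069, 8207 and 5864. The medians of S-type and T-type cells lay close together, and the T-type level of 59236 ± 133425 (SD, n = 6 cells) rests on J162_16, which held 93.3% of it.

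That cell gave 91429 reads to Cct4, or 7277 CPM, while the next cell, the M-type cell J173_25, had 1495 CPM. The log2 ratio of the T-type level over that of S-type was 3.62 with J162_16 and -0.02 without it, and over NR it was 3.30 with the cell and -0.34 without it. M-type stood 0.71 above NR on the log2 scale, at 9894 ± 6500 against 6027 ± 3021 (SD, n = 5 cells each), with overlapping cells.

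Cct5, the epsilon subunit, which is mutated in a hereditary sensory neuropathy, had 3 T-type cells above all others. It ran from 3138 to 6219 in S-type cells (median 5847) and from 332.7 to 24442 in T-type cells (median 11646). In M-type cells it was 6746, 12802, 4802, 4141 and 5967, and in NR cells 6334, 3338, 8080, 7493 and 8731. J161_9, J162_16 and J166_25 were at 17133 to 24442, whereas J163_18, with 61 reads of this gene, was the lowest of all 22 cells. The T-type level of 12470 ± 10908 (SD, n = 6 cells) was 2.48-fold that of S-type, and the log2 ratio stayed between 1.00 and 1.57 when any single cell was left out. It was 0.56 in mean CPM and 0.99 with the median over cells, both short of 2-fold.

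Tcp1, the alpha subunit and the founding member of the family, had ratios under 2-fold in all 4 comparisons and a wide spread between cells. It ran from 841.6 to 12625 in S-type cells (median 4376) and from 7.25 to 13338 in T-type cells (median 6965). The values of M-type cells were 15410, 12333, 7541, 2586 and 5005, and those of NR cells 4069, 4166, 4309, 12676 and 4047. Apart from J186_5 the NR cells lay close together, between 4047 and 4309, and J162_16, the cell with the most Cct4, had 2 reads of Tcp1. The T-type over S-type ratio was 0.33 on the log2 scale, and the M-type over NR ratio, 0.55, passed 2-fold only without J186_5, at 1.05.

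Among the subunits with low ATP affinity, Cct3, the gamma subunit, had its highest and its lowest value in T-type cells. It ran from 1045 to 8922 in S-type cells (median 4456) and from 54.4 to 18250 in T-type cells (median 3540). M-type cells gave 3964, 4539, 2695, 2221 and 4439, and NR cells 2916, 2276, 1082, 7157 and 2293. J162_16 was again the lowest of all cells, with 15 reads, and J161_9 the highest, holding 55.9% of the T-type level. Without J161_9 the log2 ratio of T-type over S-type went from 0.20 to -0.71 and that over NR from 0.79 to -0.13, and the S-type over NR ratio, 0.59, became 1.14 without J186_5.

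Cct6a, the zeta subunit in its widely expressed form, had the fewest reads. It ran from 92.85 to 331.1 in S-type cells (median 149) and from 3.89 to 4216 in T-type cells (median 171.2). For M-type cells the counts were 638.1, 4.20, 260.7, 140.6 and 704.2, and for NR cells 471.1, 297.2, 199.9, 223.1 and 0.927. The S-type cells kept within 3.57-fold of each other, while each other type had at least 1 cell with no more than 6 reads. J187_6 (NR) had 1 read, J161_9 (T-type) 4, and J165_23 (T-type) and J173_25 (M-type) 6 each.

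The highest cell, J163_18, had 773 reads of Cct6a, or 263 CPM, against 73.7 CPM in the next cell, and held 82.9% of the T-type level of 848.1 ± 1662 (SD, n = 6 cells). With it the log2 ratio of T-type was 2.14 over S-type and 1.83 over NR, and without it -0.15 and -0.45. The paralog Cct6b, known mainly from testis, had 89 reads in 8 of the 22 cells. Of these, 79 came from J173_25, 1 of the cells with 6 reads of Cct6a, and no other cell had more than 2.

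Cct7, the eta subunit, which together with Tcp1 binds the tumour suppressor VHL, was the only subunit below both S-type and NR in T-type cells. It ran from 212.4 to 3998 in S-type cells (median 2429) and from 305.5 to 3522 in T-type cells (median 1073). M-type values were 3359, 2590, 1562, 2668 and 2633, and NR values 2288, 1948, 2009, 2923 and 3615. All NR cells were at 1948 or more, and 4 of the 6 T-type cells were at 1545 or less. The T-type level of 1497 ± 1265 (SD, n = 6 cells) gave a log2 ratio of -0.63 over S-type (2323 ± 1276, n = 6) and -0.77 over NR (2557 ± 706, n = 5), short of 2-fold, and without J165_23 these became -1.09 and -1.23.

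Cct8, the theta subunit, had narrow ranges outside T-type. It ran from 2082 to 4967 in S-type cells (median 2815) and from 1454 to 44959 in T-type cells (median 4914). The M-type cells had 4435, 5354, 4935, 2038 and 2567, and the NR cells 4365, 2391, 2489, 3662 and 950.2. J162_16 was the highest and held 67.8% of the T-type level of 11054 ± 16715 (SD, n = 6 cells). The log2 ratio of T-type was 1.84 over S-type and 2.00 over NR with that cell, and 0.47 and 0.63 without it. In mean CPM, all cells included, the ratios were 0.67 and 0.77.

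Counted over the complex, T-type was at least 2-fold above S-type for 5 of the 8 subunits (Cct2, Cct4, Cct5, Cct6a and Cct8) and at least 2-fold below it for none, with a median log2 ratio of 1.17. Among the 12719 genes read in 5 or more cells, 26% were at least 2-fold higher and 32.2% at least 2-fold lower in this comparison, with a median of -0.07. Among the 3670 genes read in all cells, as every subunit was, 29.2% were higher and 11.6% lower, with a median of 0.41. Much of the count came from 2 cells. Without J162_16 the subunits past 2-fold were Cct5 and Cct6a and the median was 0.53, without J163_18 the median was 0.67, and without J162_16 and J163_18 together only Cct5 was past 2-fold and the median was 0.47, with 6 of the 8 above S-type. Without both, 22% of all genes were at least 2-fold higher and 35.8% lower (median -0.25), and 19.9% and 16.5% of the genes read in all cells (median 0.15). In mean CPM, 2 subunits (Cct4 and Cct6a) were past 2-fold and the median was 0.51, against -0.44 over all genes. On that scale 16.7% of all genes were at least 2-fold higher and 37.8% lower, and 11.9% and 18.1% of the genes read in all cells. T-type and S-type cells were fully apart for 0 of the 8 subunits and for 0.771% of all genes.

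Against NR, T-type was at least 2-fold higher for 4 of the 8 subunits (Cct2, Cct4, Cct6a and Cct8) and at least 2-fold lower for none, with a median log2 ratio of 1.00, where 28.6% of all genes were higher and 32.4% lower with a median of -0.05. Without J162_16 the count was 2 (Cct3 and Cct6a) and the median 0.60, and without both cells 1 (Cct3) and 0.49, where 24.3% of all genes were higher and 35.9% lower (median -0.24). In mean CPM 2 subunits were higher (Cct4 and Cct6a) and 1 lower (Cct7, by -1.03), with a median of 0.41. On that scale 19.3% of all genes were higher and 37.9% lower, and 15.1% and 19.8% of the genes read in all cells. Of the genes read in all cells, 31.5% were at least 2-fold higher than in NR and 13% lower, with a median of 0.38, and without both cells 22.1% and 18.4% with a median of 0.10. None of the 8 subunits separated T-type from NR cells, as 0.991% of all genes did. Both comparisons use the same T-type cells and are not independent of each other.

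Between S-type and NR cells no subunit was past 2-fold in either direction, where 25.1% of all genes were at least 2-fold higher in S-type and 22.4% at least 2-fold lower (11.9% and 11.4% of the genes read in all cells), and the median log2 ratio was -0.12, with 3 subunits above and 5 below NR. The ratios ran from -0.43 for Cct5 to 0.59 for Cct3. No subunit separated the types, against 0.409% of all genes. M-type was above NR for all 8 subunits, by 0.003 for Cct7 up to 0.71 for Cct4 with a median of 0.52, but none was past 2-fold (19.8% of all genes were at least 2-fold higher and 28.1% at least 2-fold lower, or 8.86% and 14.1% of those read in all cells) and none separated the types (0.598% of all genes). The median of the subunits in M-type over NR was 0.18 without J172_23, 0.25 without J187_6 and 0.31 without J173_25. When any single cell was left out, 6 to 8 subunits were above NR. With cells thinned to 1 depth, or with the median over cells, 7 of 8 were above NR.

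**Figure D2:**
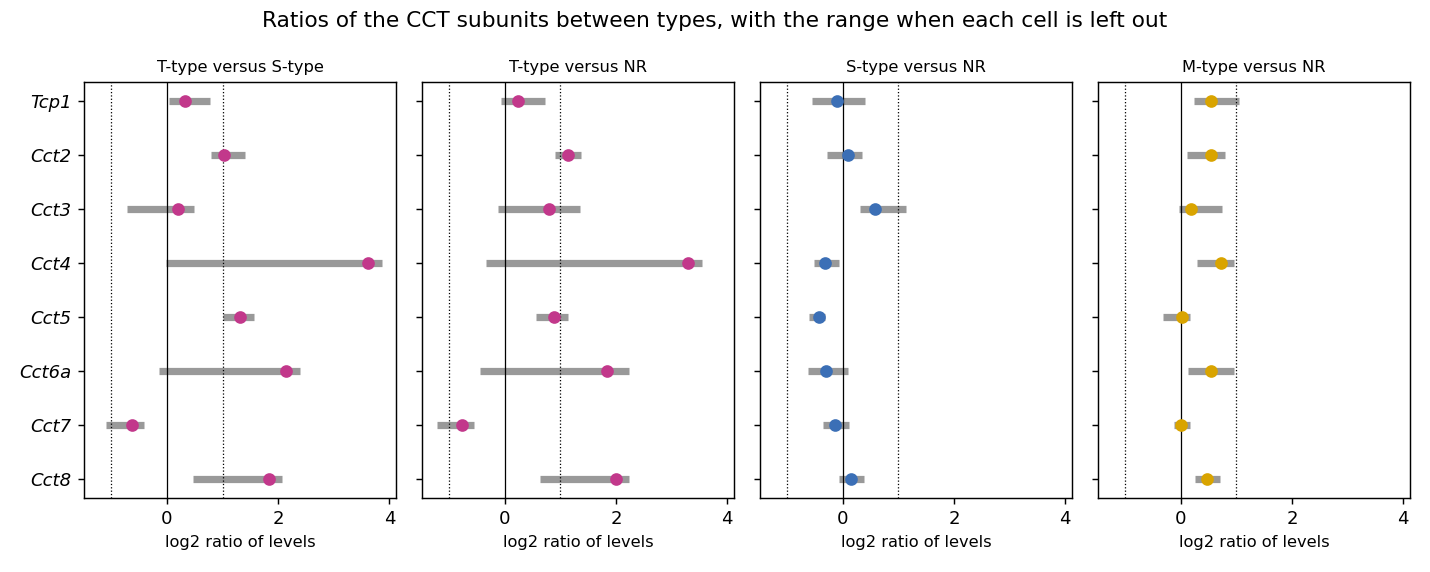
Log2 ratios of the levels of the 8 CCT subunits in 4 comparisons (points), with the range over fits that leave out 1 cell of either type (grey bars) and dotted lines at 2-fold. The T-type bars of Cct4 and Cct6a reach from above 2 to below 0, those of Cct2 and Cct5 stay above 0.5, and S-type and M-type points lie inside the dotted lines.

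The amount and the make-up of the complex's RNA were compared cell by cell. Summed over the subunits, CCT RNA made up 2157 to 3974 CPM in S-type (median 2764), 2288 to 9500 CPM in T-type (median 3821), 2421 to 5449 CPM in M-type (median 3820) and 2013 to 4327 CPM in NR cells (median 2741). Without J162_16, at 9500 CPM, no T-type cell was above 4527 CPM. Subunits were compared by reads per kb, with the length of 1 annotated transcript for each gene. This takes coverage along the transcripts to be even, which was not tested. The paper names shortening and 3′ bias as effects of RNA amplification, so the order below is one of reads and not of molecules. Per kb of transcript, Cct2 had the most reads in 13 of the 22 cells, Cct5 in 5, and Tcp1 and Cct4 in 2 each. Cct6a had the fewest in 20 cells, with a median share of 0.536% of the summed CCT reads per kb against 25.1% for Cct2. By median share the order was Cct2, Cct5 (18.3%), Tcp1 (12.6%), Cct4 (12.4%), Cct3 (9.03%), Cct8 (7.35%), Cct7 (5.64%) and Cct6a, and the ranges over cells of all neighbours in that order overlapped.

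The share of the leading subunit was 20.5% to 49.8% in S-type (median 25.4%), 32.4% to 73.5% in T-type (median 42.7%), 23.5% to 37.7% in M-type (median 25.9%) and 19.8% to 32.9% in NR cells (median 29.3%). With Cct6a set aside, the distance between the subunits with the most and the fewest reads per kb had a median of 46-fold for T-type, 3.83-fold for S-type, 6.49-fold for M-type and 7.04-fold for NR cells. Some S-type cells were uneven as well. J150_3 had 49.8% Cct2 and 948 reads of Tcp1, and J151_5 had 196 reads of Cct7, a 59.3-fold distance. J162_16 was 73.5% Cct4 and 0.00163% Tcp1.

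**Figure D3:**
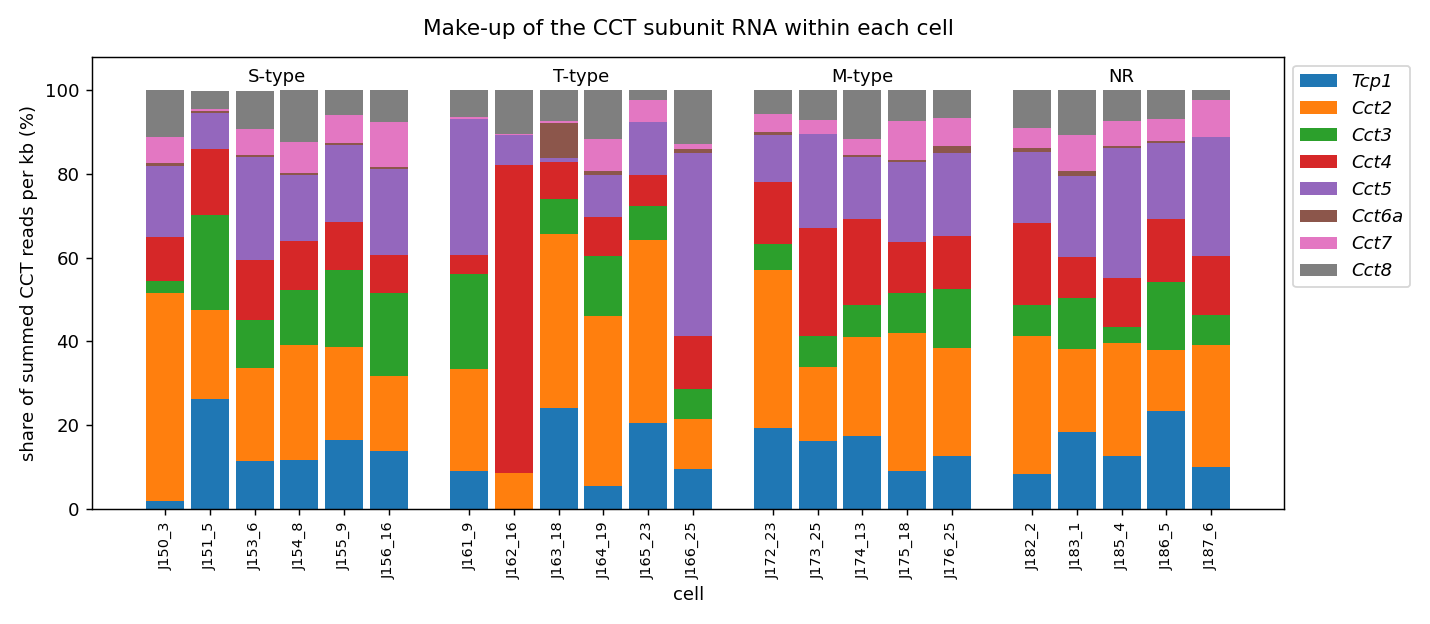
Share of each subunit in the summed CCT reads per kb (%) for each of the 22 cells, grouped by response type. Cct2 (orange) leads in 13 cells, Cct4 (red) fills 73.5% of J162_16, and Cct6a (brown) is visible mainly in J163_18, where it reached 8.31%.

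The spread within a type, as the median over the subunits of the SD of log2(normalized count + 1), was 0.70 for S-type, 2.49 for T-type, 0.66 for M-type and 0.78 for NR cells. For the 3670 genes read in all cells it was 1.17, 2.12, 1.04 and 1.30, so the subunits were below the typical gene in every type but T-type. With every cell thinned to 2937786 reads the subunits' values were 0.59, 2.38, 0.61 and 0.78. For 7 of the 8 the SD was largest in T-type, from 0.94 for Cct2 to 4.08 for Tcp1, and for Cct7 it was largest in S-type (1.53 against 1.36 in T-type). Of the T-type cells, J162_16 was the lowest for Tcp1 and Cct3 and the highest for Cct2, Cct4 and Cct8. J163_18 was the lowest for Cct5 and the highest for Cct6a. The SDs were not computed without these cells, so the T-type spread may rest on them.

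Over the 22 cells the subunits' RNAs went up and down together only in part. The median Spearman rho over their 28 pairs was 0.09, from -0.35 to 0.72, with 2 pairs at 0.5 or more and 5 below 0. The 14 subunits of the 20S proteasome core, another complex built in fixed proportions, had a median of 0.13 over 91 pairs with 2 at 0.5 or more, and all pairs of the 3670 genes a median of -0.001 with 1.9% at 0.5 or more. These correlations are descriptions across cells that share the normalization.

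Tcp1 and Cct3 had the highest, 0.72 (n = 22 cells). It was 0.68 to 0.76 with any 1 cell left out, 0.72 in the 16 cells that are not T-type, and 0.63 on CPM. Cct4 and Cct5 followed with 0.57, which went to 0.47 with cells thinned and 0.44 on CPM. Cct2 and Cct4 had 0.44 over all cells and 0.74 without the T-type cells, but 0.10 on CPM. Cct7 and Cct8 had the lowest, -0.35, which was -0.003 without the T-type cells.

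**Figure D4:**
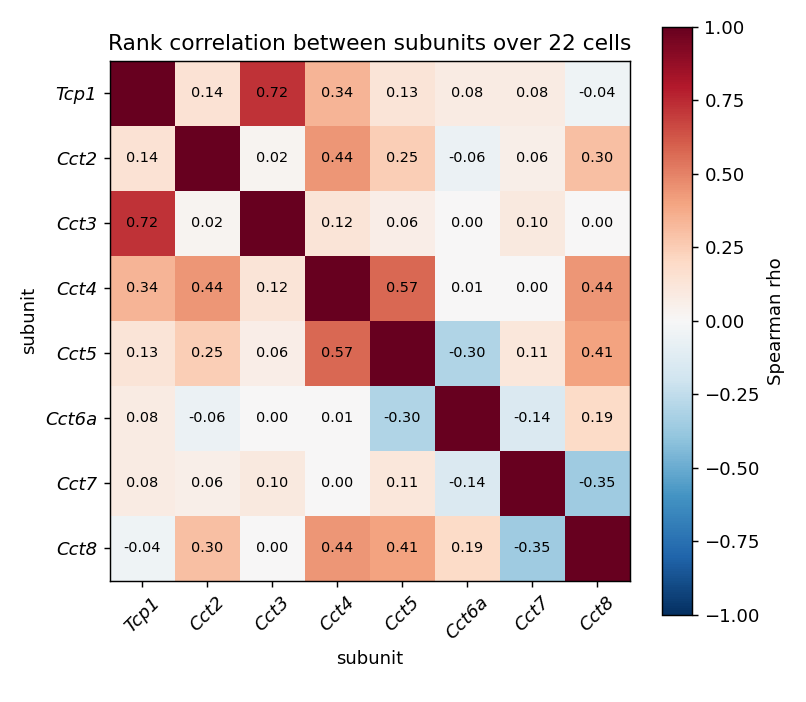
Spearman rho between the 8 CCT subunits over 22 cells (colour from -1 to 1, value in each square). Tcp1 and Cct3 stand out at 0.72, Cct4, Cct5 and Cct8 form a block at 0.41 to 0.57, and Cct6a and Cct7 show values near or below 0 with most others.

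When the subunits were averaged after centring, the genes whose pattern over cells was most like that average, out of 3662, were Eif4e2, a cap-binding protein (rho 0.85), Dstn, which depolymerizes actin (0.71), M6pr, a receptor of lysosomal enzymes (0.67), Dnajc15, a mitochondrial co-chaperone (0.67), and Mea1 (0.66). Eif4e2, picked as the highest of these genes, kept 0.83 to 0.88 when any single cell was left out. The average itself ran from -0.47 to 0.37 in S-type, from -0.34 to 0.26 in T-type, from -0.38 to 1.02 in M-type and from -0.88 to 0.56 in NR cells on the log2 scale, so the ranges overlapped. The subunits were centred but not scaled, so a cell with very few reads of 1 subunit weighs heavily in it. The lowest NR cell, J187_6, had 1 read of Cct6a. The lowest T-type cell, J162_16, had 2 reads of Tcp1, although it was the highest cell of Cct4.

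For 6 of the subunit genes, another gene starts within 1 kb on the opposite strand. Mrpl18, a mitochondrial ribosomal protein 644 bases from the start of Tcp1, had reads in all 22 cells and a rho of 0.04 with it. Fam173b, 48 bases from the start of Cct5, had -0.50, and Tsacc, 117 bases from the start of Cct3, had -0.47 but reads in 10 cells only. Psph, of serine synthesis, 451 bases from Cct6a, had -0.055, and Pradc1, 456 bases from Cct7, 0.33. B130034C11Rik next to Cct8 had reads in 1 cell.

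The partners that hand proteins to CCT or take them from it were set beside the complex. Of the 6 subunits of prefoldin, which delivers unfolded actin and tubulin, 3 were at least 2-fold higher in T-type than in S-type (Pfdn1, Pfdn2 and Pfdn4, by 1.96, 1.86 and 1.20 on the log2 scale) and Vbp1 was lower, by -1.08, with a median of 1.05. Of all genes, 26% were at least 2-fold higher and 32.2% lower in this comparison. Without J162_16 and J163_18 the same 3 genes were past 2-fold, with a median of 1.04, where 22% of all genes were higher. Against NR only Pfdn1 was past 2-fold, at 2.23. The phosducin-like co-chaperones Pdcl, Pdcl3 and Txndc9 had no member past 2-fold between T-type and S-type, and Pdcl3 was above NR in T-type (1.40), S-type (1.59) and M-type (2.70). Of the 6 tubulin cofactors, which assemble the tubulin dimer after CCT, 3 were past 2-fold above S-type in T-type (Arl2, Tbcd and Tbce). Above NR were 2 (Arl2 and Tbcb), with a median of 0.48, where 28.6% of all genes were higher. Without the same 2 cells 1 was higher and 1 lower than in S-type, where 22% and 35.8% of all genes were. Against NR 1 was higher and 2 lower, with a median of -0.18, where 24.3% and 35.9% of all genes were.

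Among the clients, 10 of 11 tubulins were at least 2-fold higher in T-type than in NR and 7 of 11 in S-type than in NR, with medians of 1.89 and 1.10, where 28.6% and 25.1% of all genes were. In M-type 2 of 11 were higher than in NR, where 19.8% of all genes were, and Tuba4a was lower, by -3.08. Tuba1a, the most read of them, had a level of 311465 in T-type, above 166410 in S-type, 101397 among M-type and 97592 among NR cells, and J162_16 held 54.9% of the T-type level. Without J162_16 and J163_18, 6 of the 11 tubulins were at least 2-fold higher in T-type than in NR and 1 lower, with a median of 1.17, where 24.3% of all genes were higher. In T-type over S-type 3 tubulins were past 2-fold higher and 1 lower, where 26% and 32.2% of all genes were. The median of the tubulins was 0.55 (0.03 without the 2 cells). For Tubb4a too few cells had reads. Of 4 actin and actin-related genes, Actr2 alone passed 2-fold, in T-type over S-type (1.28) and NR (1.87), and Actb differed by 0.35 and 0.62.

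Of 7 other clients, Cdc20, Plk1, Ccne1 and Fzr1, all of cell-cycle control, were at least 2-fold lower in T-type than in S-type, and Vhl was higher, by 1.79. Cdc20, Plk1 and Ccne1 were at least 2-fold higher in S-type than in NR, with a single cell, J150_3 or J151_5, holding 84% to 90.1% of each S-type level. The lists of cell division were compared too. All 10 genes of S phase and all 10 of G2/M were at least 2-fold higher in S-type than in NR. In that comparison 25.1% of all genes were, and no subunit. J150_3 or J151_5 held 51.3% to 97.7% of the S-type level of each G2/M gene. The S phase genes summed to 3125 and 5992 CPM in these cells and to 92.6 to 1257 CPM in the other S-type cells. In T-type 9 of the 10 genes of G2/M were at least 2-fold lower than in S-type (32.2% of all genes were), where 5 subunits were higher. In T-type over NR, where 4 subunits and 28.6% of all genes were higher, 9 of the 10 genes of S phase and 5 of the 10 of G2/M were at least 2-fold higher, with medians of 3.80 and 1.10. J165_23 held 67.7% to 98.7% of the T-type level of each S phase gene except Mcm4, of which J161_9 held 71.4%. The part of cell division in the subunits' levels was not tested.

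Other chaperonins and the proteasome were set beside CCT. The mitochondrial pair Hspd1 and Hspe1 had no ratio past 2-fold in the 4 comparisons. Mkks, a chaperonin-like protein of the Bardet-Biedl group, was 3.72 above S-type on the log2 scale in T-type, with J162_16 holding 93.4% of its level, much as for Cct4. Without J162_16 and J163_18, Mkks was not past 2-fold. Hsf1, the main factor of the heat shock response, was at a level of 32.8 in T-type against 6.94 in S-type and 7.21 in NR. The 20S proteasome, with 14 subunits, had 2 at least 2-fold higher and none lower in T-type against S-type, where 26% of all genes were higher. Against NR it had 4 higher and none lower, where 28.6% of all genes were higher. The medians were 0.15 and 0.54 where CCT had 1.17 and 1.00. Without J162_16 and J163_18 the proteasome medians were 0.10 and 0.33 and those of CCT 0.47 and 0.49.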

How the data were processed

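Single astrocytes (22, in 4 response types) were sequenced after 2 rounds of antisense RNA amplification and stranded library preparation, as paired reads. The authors trimmed the reads, aligned them with STAR to GRCm38 and counted uniquely aligned exonic reads per gene with VERSE (the submitters' notes name STAR, HTSeq, GRCm38 and mm10), and they deposited raw counts, 1 column per cell. Versions and the use of strand in counting are not given in the sources used here. There were no molecular identifiers, so intervals cover counting error only. Cells had 2937786 to 22131076 reads.

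Each count was divided by its cell's size factor, a median of ratios over the 3670 genes read in all cells, and levels, ratios and correlations were computed with NumPy 2.4.6, pandas 2.3.3 and SciPy 1.17.1 (Python 3.11.15). Only the 12719 genes read in 5 or more cells were compared. Where a type had no read, its level was floored at 3 reads over its summed size factors. The size rule was 2-fold, and 95% intervals came from the exact binomial split of the reads between 2 types. Response types came from the sample labels. Positions and lengths came from GENCODE vM21, near copies from BLAST+ 2.17.0, promoter windows from RefSeq (GRCm38.p6), and Pfdn6 was matched by its older symbol H2-Ke2. The subunits and all lists were chosen with earlier results of these data known. All 8 subunits are named. From each list those past 2-fold or with the most reads could be named, 5 genes were named for likeness, and neighbours were those starting within 1 kb on the opposite strand. Alternatives were TMM factors (edgeR 4.0.16, R 4.3.3), mean CPM, thinned cells, a pseudocount of 1, the median over cells, all genes with a read, only genes with a mean level of 10 or more, and the omission of single cells. Leaving out together the 2 T-type cells with the lowest size factors was chosen after seeing the data. The ratio step was tested on simulated data with 200 changed genes for each comparison. Figures were drawn with matplotlib 3.10.9. The calcium recordings and collection times were not used here.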

Additional observations from a re-analysis of the deposited data

Results flagged for a closer look

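Dixon's test for a single distant cell was applied within each type to the 8 subunits, their summed CPM and the share of the leading subunit, 40 sets of cells in all. It marked 11 of them, where chance marks about 1 in 20 if the values are normal and the sets independent. Neither holds here, as the values were not logged and several sets share a cell or a gene, so the number of marks is a description. Of the marks, 6 were in T-type, 3 in S-type and 1 each in M-type and NR.

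In T-type cells the marked values were the highest cell of Cct3 (J161_9, 18250), of Cct4 (J162_16, 331577), of Cct6a (J163_18, 4216) and of Cct8 (J162_16, 44959), all as normalized counts, and the summed CCT RNA (9500 CPM) and the Cct4 share (73.5% of the CCT reads per kb) of J162_16. In S-type cells they were Cct2 in J150_3 (18308), the share of Cct2 in the same cell (49.8%) and the summed CCT RNA of J155_9 (3974 CPM). In M-type cells Cct2 was marked in J172_23 (23952), and in NR cells Tcp1 in J186_5 (12676). In each of these 11 sets the distant cell was the highest. The cells with very few reads of Cct6a, Tcp1 or Cct5 were not marked by the test, which was run on the values without logs.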

How the results depend on the processing

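The median log2 ratio of the subunits kept its sign in T-type over S-type, T-type over NR and M-type over NR under every alternative run. T-type over S-type, 1.17 as reported, was 0.51 with mean CPM, 0.94 with thinned cells, 0.44 with the median over cells, 0.47 without the 2 T-type cells of lowest size factor, and 0.53 to 1.38 when single cells were left out. T-type over NR, 1.00 as reported, was 0.87 with TMM factors, 0.41 with mean CPM, 0.79 with thinned cells, 0.63 with the median over cells, 0.49 without those 2 cells, and 0.60 to 1.20 when single cells were left out. S-type over NR was -0.24 with TMM factors and -0.24 to 0.01 when single cells were left out, the positive value without J182_2. M-type over NR was 0.42 with the median over cells and 0.18 to 0.66 when single cells were left out.

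Subunits past 2-fold in T-type over S-type were 2 with mean CPM, 2 with the median over cells (1 higher and 1 lower), 1 without the 2 cells, and 2 to 5 when single cells were left out. Of all genes, 16.7% were higher and 37.8% lower with mean CPM, and 11% and 45.1% with the median over cells. Without the 2 cells it was 22% and 35.8%. In T-type over NR the subunits past 2-fold were 2 with the median over cells (1 higher and 1 lower), 1 without the 2 cells, and 2 to 6 when single cells were left out. Here 15.7% of all genes were higher and 40% lower with the median over cells, and 24.3% and 35.9% without the 2 cells. In S-type over NR and in M-type over NR 0 to 1 subunits were past 2-fold, the 1 in each without J186_5. The median correlation between subunits, 0.09, was 0.06 to 0.19 under the other scalings and 0.04 to 0.17 when single cells were left out.

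For single subunits, Cct4 in T-type over S-type was -0.02 (without J162_16) to 3.87 when single cells were left out and -0.002 without the 2 cells, and Cct6a was -0.15 (without J163_18) to 2.40. In T-type over NR, Cct4 was -0.34 (without J162_16) to 3.55, -0.29 with the median over cells and -0.32 without the 2 cells, and Cct6a was -0.45 (without J163_18) to 2.23, -0.38 with the median over cells and -0.26 without the 2 cells. No other subunit ratio past 2-fold changed sign. Mean CPM moved the median of all genes from -0.07 to -0.44 in T-type over S-type and from -0.05 to -0.45 in T-type over NR, so the subunits stood 0.95 and 0.86 above it, against 1.24 and 1.05 as reported. Against the genes read in all cells these distances were 0.76 and 0.62 as reported, 0.59 and 0.52 with mean CPM, and 0.32 and 0.39 without the 2 cells. The median over cells moved these medians of all genes to -0.66 and -0.37. No paired analysis was possible because no test was run and the labels do not say that the number ending a cell's title, which some cells of different types share, marks a common culture or day. The limit is the number of cells and the unknown animals, since each type is 1 sample. The counting error of reads, small for every subunit but Cct6a, does not cover the capture and amplification of RNA.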
